A study of Mus musculus with 4 samples.

Results

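ISG15 is a small ubiquitin-like protein that cells attach to other proteins after interferon signalling, and 5 mouse genes encode the core of that pathway. They are Isg15, the modifier itself; Uba7, the activating (E1) enzyme; Ube2l6, the conjugating (E2) enzyme; Herc6, the ligase (E3); and Usp18, the protease that removes ISG15 again. These genes were chosen by name from a table of 28168 loci measured in mature olfactory sensory neurons, the cells of the nasal epithelium that detect odorants. Of the 5 genes, 4 have a locus of their own there. Uba7 is listed only in a locus joined with its neighbour Ip6k1, an inositol hexakisphosphate kinase gene, so Uba7 has no value of its own.

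The neurons were sorted by fluorescence from dissociated olfactory epithelium of mice, and polyadenylated RNA was sequenced in 4 libraries, 2 of the line Nd1 and 2 of control mice. According to the series title the mice make double-stranded RNA from their genome, and the design text speaks of neurodegeneration in the lines. Both Nd1 libraries have the genotype Nd1+/- with OMP-IRES-tTA+/- and OMP-IRES-GFP+/-, at 212 days of age in replicate 1 and 87 days in replicate 2. The control of replicate 1, also 212 days old, is Nd1+/- and OMP-IRES-tTA-/-. The control of replicate 2, also 87 days old, is Nd1-/- and OMP-IRES-tTA+/-. The OMP-IRES-GFP+/- reporter is shared by all 4 libraries, and the transactivator tTA is placed at Omp, a gene of mature olfactory sensory neurons. The labels do not say how many mice each library holds.

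The table gives a single FPKM value per group, that is, fragments relative to transcript length and to all mapped fragments, pooled by the authors over 2 libraries of different ages. No value per library, spread between replicates or read depth can therefore be given, and 2 genes that lie close together in level cannot be ordered beyond an error. All calls are the authors', at a Cuffdiff q-value under 0.05, and rose and fell are used only of loci that passed it. In sorted bulk RNA, more cells that express a gene and more RNA per cell cannot be told apart.

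In cells that receive type I interferon, the transcription factor complex ISGF3, which includes Stat2 and Irf9, is known to switch on the genes of this pathway. Uba7 then activates ISG15 and hands it to Ube2l6, and a HERC ligase attaches it to target proteins, HERC5 in human cells and Herc6 in the mouse. Usp18 cleaves ISG15 from its targets and also acts as a brake on interferon signalling at the receptor subunit Ifnar2.

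ISGF3 binds the interferon-stimulated response element, whose core reads GAAA-NN-GAAA, with N for any base. The stretch before each gene's start is shown because these genes are known as targets of that complex. A promoter window, from 250 bases before to 50 bases after the start in RefSeq (GRCm38.p6), was at hand for 4 of the 5 genes, Isg15, Uba7, Ube2l6 and Herc6. The last 100 bases before each start are printed 5′ to 3′ on the gene's strand, with matches to the motif in capitals. They lie at chr4:156200819-156200918 (minus strand), chr9:107975467-107975566, chr2:84798728-84798827 and chr6:57580892-57580991 (plus strand for the last 3).
Isg15: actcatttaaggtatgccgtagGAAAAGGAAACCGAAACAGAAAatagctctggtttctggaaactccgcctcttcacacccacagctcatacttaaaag
Uba7: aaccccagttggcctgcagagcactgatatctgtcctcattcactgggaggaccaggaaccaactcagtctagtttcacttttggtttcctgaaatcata
Ube2l6: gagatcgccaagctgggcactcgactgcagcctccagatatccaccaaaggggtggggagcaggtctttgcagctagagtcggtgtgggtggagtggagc
Herc6: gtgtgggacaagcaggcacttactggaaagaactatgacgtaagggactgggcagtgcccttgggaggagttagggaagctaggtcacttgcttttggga

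The Isg15 window holds 3 overlapping matches, the first of them GAAAAGGAAA, which begins 78 bases before the start. The motif was searched on both strands, as GAAA-NN-GAAA and as TTTC-NN-TTTC. The windows of Uba7, Ube2l6 and Herc6 hold no match. Of all 32851 promoter windows of the same length, 1131 (3.44%) hold at least 1 match. A match is a description of the letters in the window and shows no binding.

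All 4 genes with a locus of their own rose in Nd1 neurons, with a q-value listed as 0 for each in the authors' deposited table. Of all 14841 tested loci, 15.1% were called higher in Nd1, 19.2% were called lower and 34.4% were called in either direction. The 4 genes were also called higher at q under 0.01, where the shares over all tested loci were 12.2% higher and 14.9% lower, and with at least 2-fold change, where they were 7.09% and 9.39%. With at least 1 FPKM in a group the shares were 15.3% and 20.1%. On the scale log2(FPKM + 1), which understates the change of genes near 0, the median log2 ratio of the 4 genes was 3.55, beside -0.058 over all tested loci.

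The modifier itself moved furthest. Isg15 (mm9 chromosome 4, 155573533 to 155574927) had 58.8 FPKM in Nd1 neurons and 0.505 FPKM in control neurons. The authors' deposited table lists a log2 fold change of 6.86. Its log2 ratio with a pseudocount of 1 FPKM was 5.31, which ranked 5 among all tested loci. Its level lay above 93.2% of tested loci in Nd1 neurons, against 8.69% of them in control neurons.

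Usp18, which removes the modifier, stood close behind it. Usp18 (mm9 chromosome 6, 121195924 to 121220935) had 50.6 FPKM in Nd1 neurons and 1.19 FPKM in control neurons. The listed log2 fold change in the authors' deposited table was 5.41. Its log2 ratio with the pseudocount was 4.56, which ranked 9. Its level lay above 91.5% of tested loci in Nd1 neurons and above 18.5% in control neurons.

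Ube2l6, the conjugating enzyme, was the only one of the 4 above 5 FPKM in control neurons. Ube2l6 (mm9 chromosome 2, 84638985 to 84650160) had 23.1 FPKM in Nd1 neurons and 5.97 FPKM in control neurons. In the authors' deposited table the log2 fold change was 1.95. Its log2 ratio with the pseudocount was 1.79, which ranked 198. It had the smallest ratio of the 4 genes and the highest level among them in control neurons.

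Herc6, the ligase, was the lowest of the 4 genes in both groups. It had 5.70 FPKM in Nd1 neurons and 0.148 FPKM in control neurons. For it the authors' deposited table lists a log2 fold change of 5.27. As a plain ratio this is near that of Usp18, but with the pseudocount its log2 ratio was 2.55, which ranked 82, because the control value lies near 0. Herc6 is listed in an interval of 207 kb (mm9 chromosome 6, 57435115 to 57642072) that the loci of Ppm1k and Pigy also carry. These did not move with it, since Ppm1k had 5.03 FPKM in Nd1 and 5.84 FPKM in control neurons without passing (q = 0.407), and Pigy fell, with 20.3 and 27.1 FPKM (q = 4.69e-05), in the authors' deposited table.

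Uba7, the activating enzyme, cannot be read on its own. The locus that joins Ip6k1 and Uba7 (mm9 chromosome 9, 107877898 to 107951113) had 142 FPKM in Nd1 neurons and 115 FPKM in control neurons. Its log2 fold change was 0.30 (q = 0.0298) in the authors' deposited table. The joined locus was 26.4 FPKM higher in Nd1, and how much of either level comes from Uba7 is not shown by the table.

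**Figure D1:**
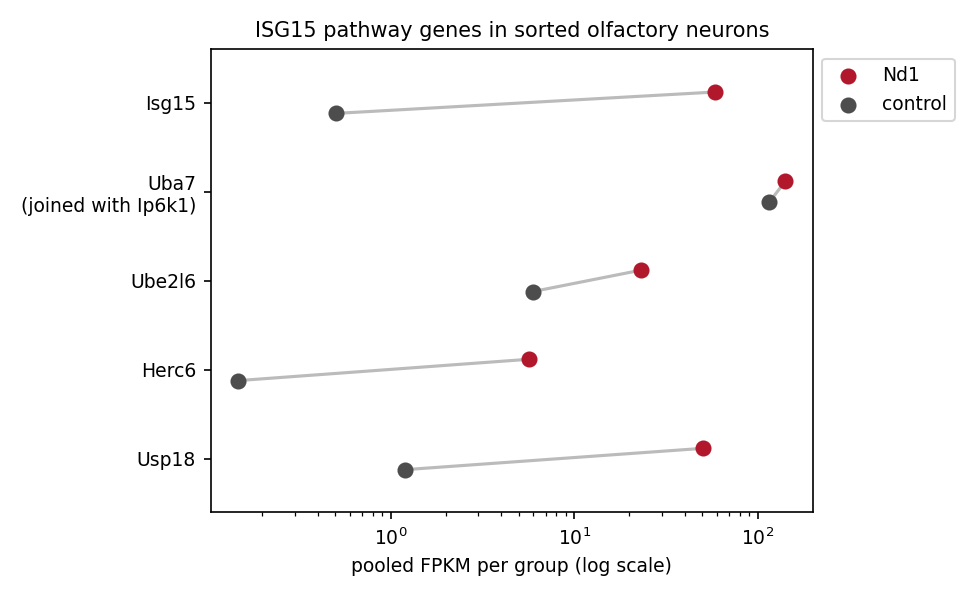
Pooled FPKM of the 5 ISG15 pathway loci on a log axis, with the Nd1 value as a red point above the control value as a grey point and a line joining them; there are no error bars because each group has a single deposited value. Isg15, Usp18 and Herc6 lie far apart between groups, Ube2l6 has 23.1 and 5.97 FPKM, and the joined Ip6k1 and Uba7 locus has 142 and 115 FPKM.

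The order of the genes differed between the groups, on the FPKM scale, which is per transcript length. In Nd1 neurons the order of levels was Isg15, Usp18, Ube2l6 and Herc6, and in control neurons it was Ube2l6, Usp18, Isg15 and Herc6. The level of Isg15 was 2.54 times that of Ube2l6 in Nd1 neurons and 0.0846 times that of Ube2l6 in control neurons. Usp18 and Herc6 had a similar ratio, with Usp18 at 8.87 times the level of Herc6 in Nd1 neurons and 8.10 times in control neurons. The control ratio rests on 0.148 FPKM of Herc6, a level above only 1.89% of tested loci, and carries no known error. In Nd1 neurons Isg15 and Usp18 differed by a factor of 1.16, and without replicate values that difference cannot be set against an error. The summed level of the 4 genes was 138 FPKM in Nd1 neurons and 7.82 FPKM in control neurons.

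**Figure D2:**
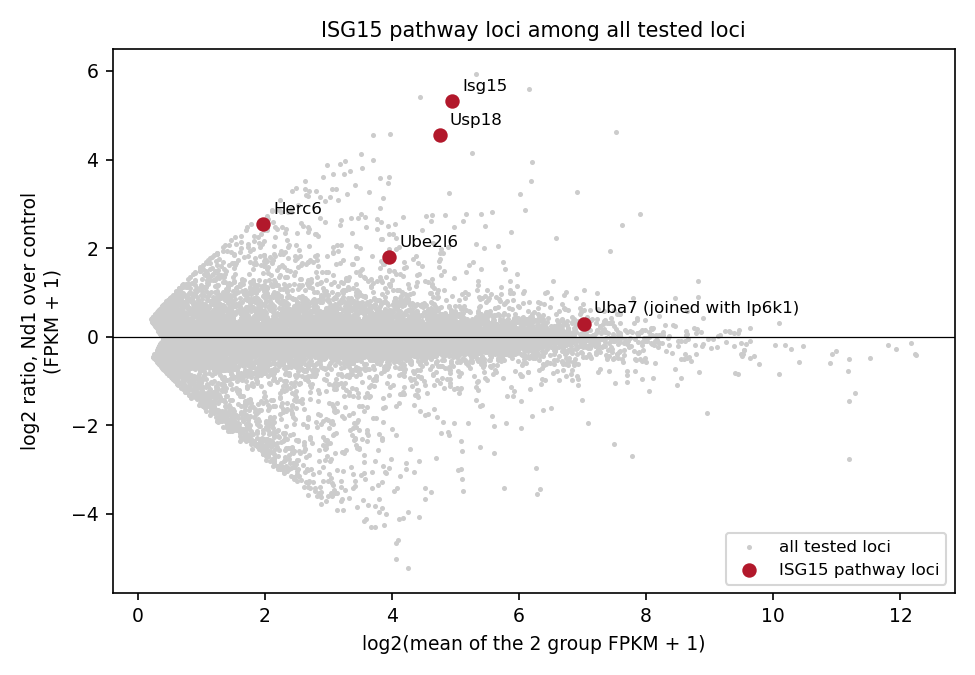
Log2 ratio of Nd1 over control (FPKM + 1) against log2 of the mean of both groups' FPKM plus 1, for all 14841 tested loci (grey points) and the 5 ISG15 pathway loci (red points). Isg15 at 5.31 and Usp18 at 4.56 lie near the upper edge of all loci, Herc6 at 2.55 and Ube2l6 at 1.79 lie above the main band, and the joined Ip6k1 and Uba7 locus at 0.30 lies within it.

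Each ISG15 pathway gene belongs to a larger family, and its relatives, which mostly serve ubiquitin, give its level a scale. Isg15 was set beside 15 other ubiquitin-like modifier genes. It ranked 5 of 16 in level in Nd1 neurons, with the ubiquitin gene Ubb (1089 FPKM), Ubl3 (118 FPKM) and Nedd8 (64.0 FPKM) among the genes above it, and 16 of 16 in control neurons. None of the 15 others was called higher in the authors' Cuffdiff table, and none was higher at an unadjusted p under 0.05. Of the 15, 2 fell, beside 15.1% called higher and 19.2% called lower over all tested loci. They were the membrane-anchored Ubl3 (118 and 154 FPKM in Nd1 and control neurons, q = 0.00542) and Ubd (0.328 and 1.06 FPKM, q = 0.0093). Ubd encodes FAT10, another modifier that inflammatory cytokines induce. Ubb had 1089 FPKM in Nd1 and 1233 FPKM in control neurons and did not pass (q = 0.486).

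The other activating enzymes gave no call. Of 9 tested E1 genes none passed in the authors' Cuffdiff table, beside 34.4% of all tested loci called in either direction. At an unadjusted p under 0.05 the counts were 0 higher and 1 lower. Uba1, the main E1 of ubiquitin, had 90.8 FPKM in Nd1 and 93.4 FPKM in control neurons (q = 0.832). Uba6, which activates both ubiquitin and FAT10, had 9.33 and 11.6 FPKM (q = 0.0822).

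Ube2l6 ranked 17 of 35 E2 genes in level in Nd1 neurons and 30 of 35 in control neurons. In the authors' deposited table, 2 of 30 other tested E2 genes rose, 2 fell and 26 did not pass, beside 15.1% higher and 19.2% lower over all tested loci. The rises were those of Ube2ql1 (7.84 FPKM in Nd1, 2.81 FPKM in control) and Ube2h (32.4 and 26.5 FPKM). The falls were those of Ube2o (49.3 and 59.3 FPKM) and Ube2t (0.314 and 0.780 FPKM). Ube2l3, the closest relative of Ube2l6 and an E2 for ubiquitin, had 43.4 FPKM in Nd1 and 39.3 FPKM in control neurons and did not pass (q = 0.427).

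Herc6 had the lowest level of the 5 HERC genes in both groups. The other 4 did not rise in the authors' Cuffdiff table, and none of them was higher at an unadjusted p under 0.05. Over all tested loci, 15.1% were called higher and 19.2% lower, so few rises would be found among any 4 loci. Herc1 fell, with 77.3 FPKM in Nd1 and 93.8 FPKM in control neurons (q = 0.00108), as did Herc4, with 11.8 and 15.3 FPKM (q = 0.0337). Herc6 made up 2.81% of the summed level of the HERC genes in Nd1 neurons, against 0.0693% in control neurons.

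Usp18 ranked 3 of 49 ubiquitin-specific protease genes in level in Nd1 neurons, behind Usp21 (182 FPKM) and Usp48 (107 FPKM), and 39 of 49 in control neurons. It made up 4.96% of their summed level in Nd1 and 0.128% in control neurons. In the authors' deposited table, 7 of 38 other tested proteases rose, 5 fell and 26 did not pass, near the shares of 15.1% higher and 19.2% lower over all tested loci. With the pseudocount, the largest of these changes were Usp11 (2.81 FPKM in Nd1, 0.869 FPKM in control), Usp3 (17.1 and 31.3 FPKM), Usp21 (182 and 118 FPKM) and Usp25 (6.75 and 4.75 FPKM). The next largest log2 ratio of the family with the pseudocount was 1.03, that of Usp11, beside 4.56 for Usp18.

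**Figure D3:**
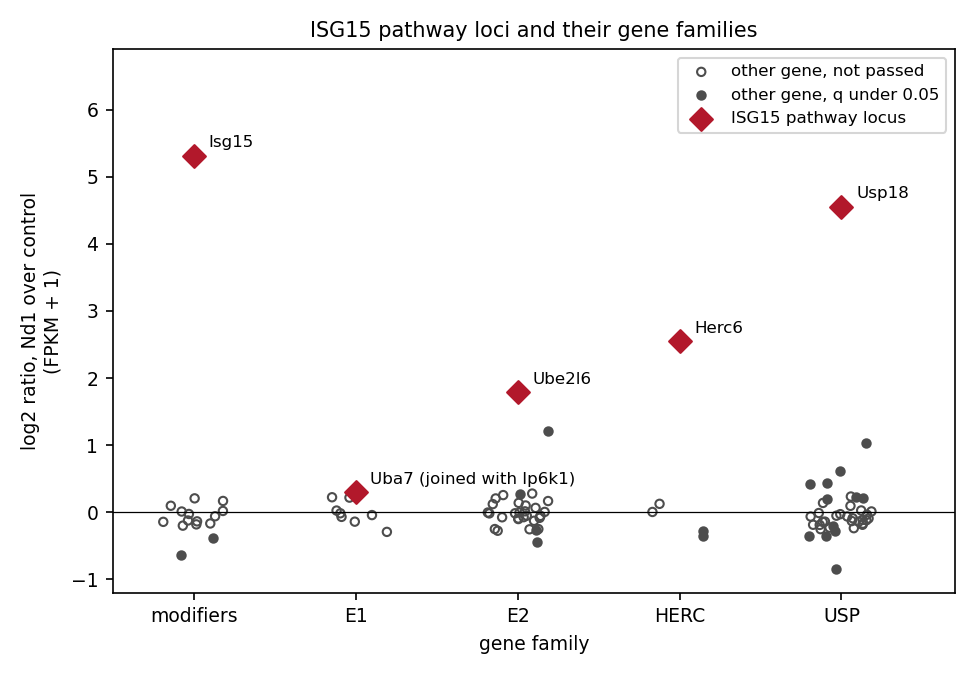
Log2 ratio of Nd1 over control (FPKM + 1) for the ISG15 pathway loci (red diamonds) and the other tested genes of the same families (grey circles, filled where q is under 0.05), with families side by side and points spread sideways only for legibility. Isg15, Ube2l6, Herc6 and Usp18 lie above every other tested gene of their family, where the highest others are Atg12 at 0.21, Ube2ql1 at 1.21, Herc2 at 0.13 and Usp11 at 1.03. The diamond among the E1 enzymes is the joined Ip6k1 and Uba7 locus at 0.30.

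Other enzymes have been reported to attach or remove ISG15. Trim25, a RING ligase of ISG15 that also ubiquitinates RIG-I, rose to 22.7 FPKM in Nd1 neurons, against 4.11 FPKM in control neurons (log2 fold change 2.47, q listed as 0, in the authors' deposited table). The ligase Arih1 had 24.9 and 28.4 FPKM and did not pass (q = 0.263). Of the proteases reported to act on ISG15 as well as on ubiquitin, Usp21 rose (182 and 118 FPKM), Usp5 rose (26.5 and 22.6 FPKM, q = 0.0475) and Usp2 fell (1.69 and 2.46 FPKM, q = 0.000612). Usp14 did not pass (9.99 and 9.29 FPKM, q = 0.372), and Usp13 was not tested. In all, 3 of the 6 tested genes of this list were higher and 1 was lower, beside 15.1% and 19.2% of all tested loci.

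The ISGF3 subunit genes Irf9 and Stat2 rose in the authors' deposited table, each with q listed as 0. Irf9 had 61.4 FPKM in Nd1 and 8.11 FPKM in control neurons, with a log2 fold change of 2.92. Stat2, which also tethers Usp18 to the receptor, had 16.6 and 6.97 FPKM, with a log2 fold change of 1.25. The receptor subunits did not pass. Ifnar2, on which Usp18 acts, had 12.12 FPKM in Nd1 and 11.96 FPKM in control neurons (q = 0.954), and Ifnar1 had 22.0 and 21.4 FPKM (q = 0.794). Among 6 tested partners of ISG15 and Usp18, 1 rose and 1 fell, near the shares of 15.1% higher and 19.2% lower over all tested loci. The rise was that of Itgal, a chain of the LFA-1 receptor for free ISG15 (3.75 and 1.61 FPKM, q = 1.79e-08). The fall was that of the receptor-bound kinase Tyk2 (6.24 and 9.41 FPKM, q = 0.000147). The partner chain of Itgal, Itgb2, was not tested at 0.0534 FPKM in Nd1 and 0.260 FPKM in control neurons.

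Proteins of 18 tested genes have been reported as ISG15 targets, and of these genes 8 rose, 1 fell and 9 did not pass, all by the calls of the authors' deposited table, beside 15.1% higher and 19.2% lower over all tested loci. Among the larger rises besides Trim25 were those of the RNA sensor Ifih1 (19.4 FPKM in Nd1, 2.68 FPKM in control) and of Eif2ak2, the dsRNA-activated kinase PKR (12.6 and 2.33 FPKM). The single fall was that of Irf3 (12.2 and 14.8 FPKM, q = 0.0109). The median log2 ratio of the list was 0.11 with the pseudocount, beside -0.058 over all tested loci. Several of these targets are themselves interferon-induced genes, and the list was put together with earlier results of these data known.

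The loci most like each pathway gene were sought among tested loci listed under a single gene name. Nearness was taken in log2(FPKM + 1) of both groups, over 2 pooled values. Unnamed and joined loci were left out, and unnamed ones lie nearer to Herc6 and to Ube2l6 than some loci given here. Nearest to Isg15 lay Rtp4, a receptor transporter protein gene, with 58.8 FPKM in Nd1 and 0.459 FPKM in control neurons at a distance of 0.045, then Oasl2 and Usp18. Nearest to Usp18 lay Isg15 at 0.58, then Rtp4 and Bst2, which encodes the restriction factor tetherin. Nearest to Herc6 lay the growth factor gene Fgf18 (5.79 and 0.208 FPKM) at 0.076, then 9130401M01Rik and Gzma, which encodes granzyme A. Nearest to Ube2l6 lay the adaptor gene Sh2b2 (21.1 and 6.10 FPKM) at 0.13, then Rbm11 and Marcks. Isg15 and Usp18 were thus among each other's 3 nearest loci, at a distance of 0.58. The 3 nearest loci of Herc6 and of Ube2l6 held no other pathway gene, but they lay within 0.13 and 0.16. A place among the 3 nearest therefore stands for different distances.

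Markers of other cells that a sort could carry differed in level by cell type. The summed level of 9 macrophage and microglia markers was 1.63 FPKM in Nd1 and 1.37 FPKM in control neurons, and the highest single one was 0.465 FPKM. The sum of 9 lymphocyte markers was 0.446 FPKM in Nd1 and 1.21 FPKM in control neurons, with Cd8a listed at 0 in Nd1 and Cd3e at 0 in control. Of the 2 tested, Ptprc was lower in Nd1 (0.0475 and 0.490 FPKM, q = 4.24e-06 in the authors' Cuffdiff table). The other, Nkg7, did not pass (0.158 and 0.380 FPKM). This panel does not hold Gzma (5.65 and 0.257 FPKM) or Itgal (3.75 and 1.61 FPKM), named above, which both rose. Neutrophil markers summed to 6.77 and 32.0 FPKM, with 7 of 8 lower in Nd1, sustentacular cell markers to 58.6 and 72.6 FPKM, with 3 of 6 lower and Cyp2a5 the highest at 28.0 and 30.9 FPKM, and endothelial markers to 2.92 and 1.69 FPKM, with Pecam1 higher. Mature neuron markers were present in both groups and lower in Nd1 for 7 of 8, with a sum of 4893 FPKM in Nd1 and 12176 FPKM in control neurons. The sums lean on Omp (605 and 4087 FPKM) and Stoml3 (1254 and 3425 FPKM), which had the largest falls in FPKM. Rtp1 did not pass (473 and 566 FPKM, q = 0.264 in the authors' Cuffdiff table). Omp is the gene at which tTA is placed, and the control of replicate 1 lacks tTA. Over all tested loci, 15.1% were called higher and 19.2% lower. The part of these markers in the results above was not tested.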

How the data were processed

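The authors deposited a single table for the series with 1 FPKM value per group at each locus, pooled over 2 libraries, together with their log2 fold change, test statistic (a score, not used here), p-value and q-value, per the file headers. Bowtie, Cuffdiff 1.3.0 and the build mm9 stand in the submitters' processing notes. Not given in the sources used here are the annotation, the filters and whether counting used strand. Of 28168 loci, 14841 were tested, 12711 were not tested and 616 failed. The listed log2 fold change is that of Nd1 over control and differs from the log2 ratio of the FPKM values by at most 1.38e-05 for tested loci above 0 in both groups. Recomputing the q-value by Benjamini-Hochberg over tested loci gave the listed one, within 1% in 100.0% of them.

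The planned limma test needs a value per library, and the table holds none, so no test was run. The p-values of the authors reflect their model, and the labels do not say whether libraries came from separate mice. Depth is unknown. Log2 ratios were computed with a pseudocount of 1 FPKM (Python 3.11.15, pandas 2.3.3). Only the Benjamini-Hochberg step and the search for nearest loci were tested on simulated data. Starts are those listed plus 1. Of a symbol with several loci, the one of the highest mean FPKM was used. The genes and lists were chosen with earlier results of these data known, and Usp6nl and Ube2cbp were taken out of the protease and E2 families after their values had been seen, because their products do not belong there. Named genes are the pathway genes, up to 4 called loci per list by size of change with at least 1 FPKM in a group (all where 5 or fewer were called), 12 genes fixed by name, and the 3 nearest single-name loci of each pathway gene. A few genes that this rule names are not reported here. Alternatives covered the pseudocount, the scaling, the q threshold and a filter on low values.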

Additional observations from a re-analysis of the deposited data

How the results depend on the processing

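All 4 pathway genes with a locus of their own stayed higher in Nd1 under every alternative that was run. The count of 4 was the same at q under 0.01 and with at least 2-fold change. It was also 4 with at least 1 FPKM in a group, but that filter adds no support. Isg15 and Herc6 pass it only through Nd1, with 0.505 and 0.148 FPKM in control neurons. With a pseudocount of 0.1 FPKM the log2 ratios of Isg15, Usp18, Herc6 and Ube2l6 were 6.61, 5.29, 4.55 and 1.94, and with no pseudocount 6.86, 5.41, 5.27 and 1.95, so the value of Herc6 depends most on this choice. Scaled by the sum of FPKM outside odorant receptors they were 5.38, 4.64, 2.60 and 1.89, with 0.40 for the joined Ip6k1 and Uba7 locus. With the median of tested loci of at least 0.5 FPKM in the mean (-0.060) set to 0 they were 5.37, 4.62, 2.61 and 1.85, with 0.36 for the joined locus, and after quantile normalization 5.38, 4.65, 2.59 and 1.84, with 0.32 for the joined locus. At q under 0.01 the counts moved to 2 higher among the other ISG15 enzymes, 1 lower E2 gene, 1 lower HERC gene, 3 higher and 3 lower proteases, and 0 lower ISG15 targets. With at least 2-fold change they moved to 1 higher and 0 lower among the other ISG15 enzymes, 0 lower partners, 1 higher and 1 lower E2 gene, 0 lower HERC genes, 1 higher and 0 lower proteases, 1 lower modifier, and 6 higher and 0 lower ISG15 targets. With at least 1 FPKM in a group, 1 lower E2 gene was left. No paired analysis was possible because the table holds no value per library, and for the same reason leaving out each library was not run. Each group pools libraries of 212 and 87 days, and the controls differ in genotype, so neither age nor genotype within a group can be examined. Low values such as that of Herc6 in control neurons carry no known error.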

Other observations

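The loci beside Isg15 were examined after its value had been seen. Of the 6 tested loci nearest to it on mm9 chromosome 4, 3 on each side, 4 rose and 1 fell in the authors' deposited table, where 15.1% of all tested loci were called higher and 19.2% lower. Before and after are used here in the order of chromosome coordinates. Isg15 lies on the minus strand, so loci after it are on the side of its promoter. Agrn, which encodes the synapse-organizing proteoglycan agrin and ends 1935 bases before Isg15, rose to 42.9 FPKM in Nd1 neurons, against 10.8 FPKM in control neurons. AW011738, which begins 2465 bases after Isg15, rose to 10.3 FPKM in Nd1 neurons, against 0.115 FPKM in control neurons. Its log2 fold change of 6.48 is close to that of Isg15, but its control value lies near 0. With the pseudocount its log2 ratio was 3.34, against 5.31 for Isg15. The next loci on that side, 2310042D19Rik (19.1 and 7.27 FPKM) and Plekhn1 (59.98 and 28.4 FPKM), also rose. On the other side, 9430015G10Rik fell (5.21 and 7.43 FPKM) and Ttll10 did not pass (22.9 FPKM in both groups).

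Beside the other 4 loci of the pathway, 13 neighbours chosen in the same way were tested. Of these, 1 rose and 2 fell in the authors' deposited table, where 15.1% of all tested loci were called higher and 19.2% lower. The rise was that of Serping1, the complement C1 inhibitor gene near Ube2l6, with 25.0 FPKM in Nd1 and 3.58 FPKM in control neurons. The falls were those of Ypel4 near Ube2l6 (79.9 and 104.5 FPKM) and Pex26 near Usp18 (4.13 and 5.03 FPKM). The difference between the surroundings of Isg15 and those of the other loci was not tested, and whether reads were assigned by strand is not given in the sources used here.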
